A study of Homo sapiens with 2 samples.

Results

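The replication-dependent histone genes encode the bulk histones that package newly made DNA. They were taken as the rows of the expression table annotated as protein-coding whose symbol begins with HIST1H, HIST2H, HIST3H or HIST4H, which gave 71 of 58302 genes: 6 of the linker histone H1, 17 of H2A, 18 of H2B, 15 of H3 and 15 of H4. The data are 2 RNA-seq libraries, 1 per condition, from HL60-EIF2S3 cells. HL60 itself is a long-established line of human promyelocytic leukemia, and in the derived line EIF2S3, the gamma subunit of translation initiation factor eIF2, is carried as a transgene under the Retro-X Tet-Off Advanced system. The library labelled DOX(+) came from cells treated with doxycycline (DOX), which shuts the transgene off, and the library labelled DOX(-) came from untreated cells, in which the transgene is on. Both libraries therefore come from cells that carry the transgene, and the labels give no line without it. Not given in the sources used here are the doxycycline dose, how long it was applied, and whether the line is a clone or a pool.

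Core histones H2A, H2B, H3 and H4 form the protein spool of the nucleosome, and H1 binds the DNA where it enters and leaves. The genes lie in clusters, have no introns as a rule, and are transcribed mainly in S phase, when DNA is copied. Their mRNAs mostly end in a conserved stem-loop instead of a poly(A) tail. The stem-loop is bound by SLBP, and the end is cut with the help of U7 RNA. Polyadenylated histone mRNAs are also known, and a protocol that selects for poly(A) tails recovers few of the others. Whether it was used here is not given in the sources used here, nor is strandedness.

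The histone stem-loop was looked for by its letters in the annotated transcripts of GENCODE release 29 on GRCh38, and it is shown here because it is the mark by which these mRNAs are processed. It was found in the transcript models of 32 of the 71 members (45.1%) and of 26 of 19717 other protein-coding genes (0.132%). By class it was in 0 of 6 H1, 7 of 17 H2A, 11 of 18 H2B, 6 of 15 H3 and 8 of 15 H4 genes. The 34 members whose model is the coding sequence alone cannot hold it, since it lies after the stop codon. The sites below carry 5 bases on each side of the stem-loop, whose 16 letters are in capitals.
HIST3H2A, chr1:228457364-228457389, minus strand: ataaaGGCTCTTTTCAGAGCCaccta
HIST2H2AA4, chr1:149851569-149851594, plus strand: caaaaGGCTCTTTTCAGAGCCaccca
HIST1H2AG, chr6:27133510-27133535, plus strand: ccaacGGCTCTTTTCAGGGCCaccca
HIST2H2BE, chr1:149886183-149886208, minus strand: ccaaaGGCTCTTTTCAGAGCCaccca
HIST1H3H, chr6:27810511-27810536, plus strand: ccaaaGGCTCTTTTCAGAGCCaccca
HIST1H4J, chr6:27824454-27824479, plus strand: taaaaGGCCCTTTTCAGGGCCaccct
HIST1H4I, chr6:27139649-27139674, plus strand: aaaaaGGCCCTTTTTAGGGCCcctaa
The first 5 of these have a stem that opens with GGCTC, except that HIST1H2AG closes with GGGCC where the others close with GAGCC. The H4 sites open with GGCCC and close with GGGCC, and this pair of stems was in all 8 H4 members with a site. In 22 of the 32 members the model, or the longest of several, runs on for more than 200 bases beyond the loop, by as many as 1917 bases. A model of that kind is longer than an mRNA cut just after the stem-loop, so for such an mRNA the FPKM divides by a greater length. Which form of mRNA the fragments came from was not tested.

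The promoters of HIST1H2BK, HIST3H2A and HIST2H2AC are shown because these genes were the highest H2B member, the highest H2A member and the H2A member with the greatest difference between the libraries, a choice made after the values were seen. Each line gives the 200 bases before the transcription start from RefSeq on GRCh38.p14. Capitals mark the octamer ATTTGCAT, CCAAT and TATAAA, each on either strand. None of these strings contains another.
HIST1H2BK, chr6:27146859-27147058, minus strand: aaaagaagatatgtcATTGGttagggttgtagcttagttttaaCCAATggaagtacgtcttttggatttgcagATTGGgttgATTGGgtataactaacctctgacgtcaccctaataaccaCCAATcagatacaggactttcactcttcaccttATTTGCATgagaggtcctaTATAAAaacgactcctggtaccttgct
HIST3H2A, chr1:228457874-228458073, minus strand: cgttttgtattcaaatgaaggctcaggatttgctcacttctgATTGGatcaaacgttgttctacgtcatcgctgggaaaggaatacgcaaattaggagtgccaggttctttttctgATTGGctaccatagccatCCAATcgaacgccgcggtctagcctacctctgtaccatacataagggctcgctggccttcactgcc
HIST2H2AC, chr1:149886718-149886917, plus strand: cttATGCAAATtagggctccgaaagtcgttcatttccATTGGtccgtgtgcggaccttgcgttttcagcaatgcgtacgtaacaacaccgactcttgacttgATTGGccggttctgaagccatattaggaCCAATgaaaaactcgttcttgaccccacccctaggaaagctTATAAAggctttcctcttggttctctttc
The same strings were counted in windows from 250 bases before to 50 bases after the start, which were found for 66 of the 71 members. A gene with several starts was counted once, as holding a string if any of its windows did. The octamer was in 14 of 18 H2B (77.8%) and 11 of 16 H2A (68.8%) genes, against 1 of 13 H3, 0 of 6 H1 and 0 of 13 H4 genes. It was in 598 of all 27305 genes with a window (2.19%). CCAAT was in all 6 H1, 16 H2A, 18 H2B and 13 H3 genes and in 3 of 13 H4 genes (23.1%), against 39.7% of all genes with a window. TATAAA was in 45 of 66 members (68.2%), against 14% of all genes with a window. HIST3H2A, the H2A gene with the highest level, held neither the octamer nor TATAAA in its window. A match of letters is a description and does not show that a factor binds. H2A and H2B genes that face away from each other share much of their windows, so these counts are not of independent sequences.

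A total of 18521278 fragments stood behind the library labelled DOX(+), against 16577648 behind the library labelled DOX(-), as recovered from the steps of the deposited FPKM values (fragments scaled to transcript length and to library size). The table listed EIF2S3 itself at 126.2 FPKM in the library labelled DOX(+) against 132.9 FPKM in the library labelled DOX(-), a ratio of 0.950, so the state of the transgene is taken from the labels, not from this value. The libraries are called DOX(+) and DOX(-) below by those labels. Of 6 promyelocyte markers, CTSG had 569.8 FPKM in DOX(+) against 689.2 FPKM in DOX(-) and ELANE 299.4 FPKM in DOX(+) against 396.4 FPKM in DOX(-), while MPO, usually abundant in promyelocytes, was at 0.469 FPKM in DOX(+) against 0.274 FPKM in DOX(-). AZU1 had 52.3 FPKM in DOX(+) against 76.0 FPKM in DOX(-), PRTN3 had 144.7 FPKM in DOX(+) against 177.6 FPKM in DOX(-), and CD33 had 8.89 FPKM in DOX(+) against 8.87 FPKM in DOX(-). The summed level of the 6 markers was 1075 FPKM in DOX(+) against 1348 FPKM in DOX(-). Monocyte markers summed to 0.159 FPKM in DOX(+) against 0.189 FPKM in DOX(-), lymphoid markers to 0.240 FPKM in DOX(+) against 0.281 FPKM in DOX(-), and maturing neutrophil markers to 3.38 FPKM in DOX(+) against 3.86 FPKM in DOX(-), with FCGR3A, CD3E, MS4A1, FCGR3B and MMP9 listed at 0 in both libraries. Erythroid markers summed to 3.46 FPKM in DOX(+) against 1.37 FPKM in DOX(-), nearly all of it HBA1, with HBB listed at 0. The part of any change in cell makeup or maturation in the values below was not tested, and in bulk RNA fewer cells that transcribe a gene and less of its RNA per cell cannot be told apart. With 1 library per condition no difference between the libraries could be tested against replicates, so no p-value is given. The intervals are exact conditional 95% intervals (Clopper-Pearson) of the ratio of library-scaled fragments. Counting error is all they cover, and without molecular identifiers several fragments may stem from the same molecule.

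Most replication-dependent histone genes were detected at very low levels. An FPKM above 0 was listed for 51 members in the library labelled DOX(+) and for 49 in the library labelled DOX(-), and for 56 in at least 1 library. At least 3 fragments, the floor used here for detection, were found for 36 members in DOX(+) and 27 in DOX(-), and for 39 in either. At least 1 FPKM was reached by 11 members in DOX(+), 10 in DOX(-), 13 in either and 8 in both. These 13 are 18.3% of the members, while 46.8% of the 19817 protein-coding genes reached 1 FPKM in either library. All 71 members together made up 0.0223% of the summed FPKM in DOX(+) and 0.0173% in DOX(-). The 12 replication-independent histone genes, most of whose mRNAs are known to be polyadenylated, together summed to 278.5 FPKM in DOX(+) against 278.4 FPKM in DOX(-), and 2 of them, H2AFY2 and H2AFJ, were listed at 0 in both. The 71 members summed to 64.2 FPKM in DOX(+) against 48.8 FPKM in DOX(-).

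**Figure D1:**
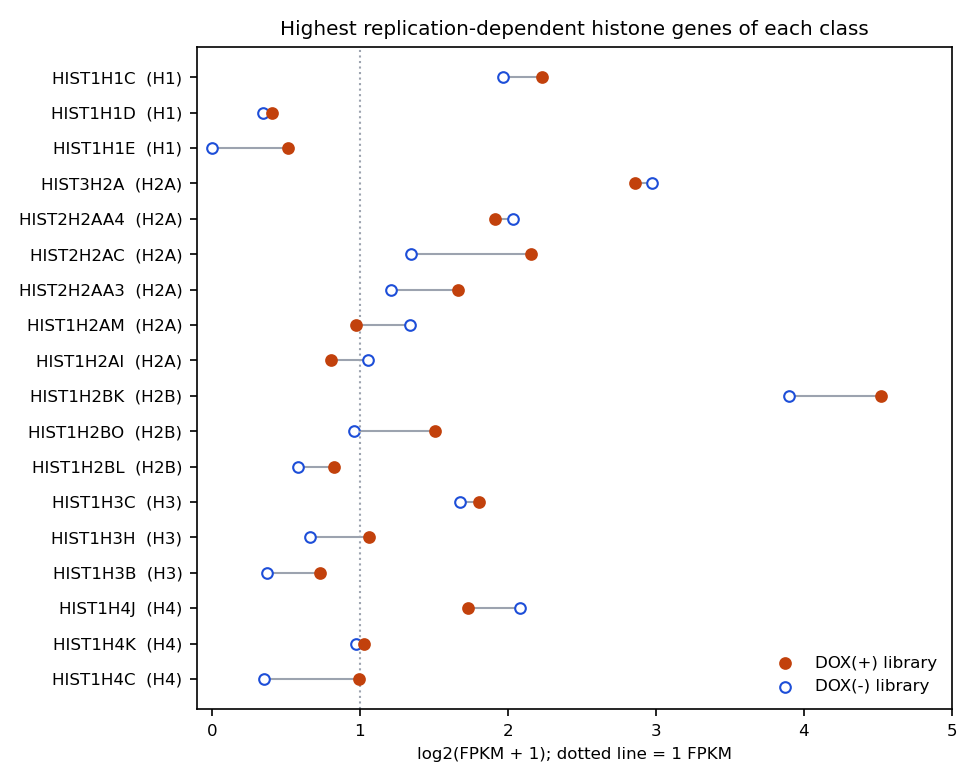
Level as log2(FPKM + 1) of the 3 highest members of each histone class and of every member that reached 1 FPKM, with a filled point for the library labelled DOX(+) and an open point for the library labelled DOX(-). HIST1H2BK stands at 22.0 FPKM in DOX(+) against 13.9 FPKM in DOX(-), HIST3H2A follows at 6.27 FPKM in DOX(+) against 6.87 FPKM in DOX(-), both right of the dotted line at 1 FPKM.

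The 15 members listed at 0 in both libraries were HIST1H1A and HIST1H1T of H1, HIST1H2AA, HIST1H2AB and HIST1H2AE of H2A, HIST1H2BA, HIST1H2BE and HIST1H2BG of H2B, HIST1H3G, HIST2H3PS2 and HIST3H3 of H3, and HIST1H4F, HIST1H4G, HIST1H4L and HIST4H4 of H4. Among them are the genes known from testis: HIST1H1T encodes the testis linker histone, HIST1H2AA and HIST1H2BA the testis H2A and H2B, and HIST3H3 the testis H3. A count of 0 still allows up to 3 fragments, which for these 15 genes equals 0.0672 to 0.545 FPKM in DOX(+) and 0.0751 to 0.609 FPKM in DOX(-), depending on length. This limit holds only where reads can be assigned to the gene. HIST2H3PS2 shares every run of 100 bases with another gene, and HIST1H2BE shares 25.6% of its runs.

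The share of members listed above 0 was of similar order in the 5 classes, and the levels were not. An FPKM above 0 in either library was listed for 4 of 6 H1, 14 of 17 H2A, 15 of 18 H2B, 12 of 15 H3 and 11 of 15 H4 genes. At least 3 fragments in either library were found for 3 of 6 H1, 11 of 17 H2A and 10 of 18 H2B genes. The same held for 7 of 15 H3 and 8 of 15 H4 genes. In at least 1 library, 1 FPKM was reached by 1 H1, 6 H2A, 2 H2B, 2 H3 and 2 H4 genes. That share was highest in H2A, at 6 of 17 genes. In FPKM summed over its members, H2B was the highest class in both libraries, with 28.3 FPKM in DOX(+) against 18.3 FPKM in DOX(-). That was 44.0% of the sum of all members in DOX(+) and 37.5% in DOX(-). H2A came next with 19.1 FPKM in DOX(+) against 17.7 FPKM in DOX(-), or 29.7% of the sum in DOX(+) and 36.3% in DOX(-). By fragments H2A stood above H2B in DOX(-), with 201 against 149, and close to it in DOX(+), with 235 against 240. H3 held 6.44 FPKM in DOX(+) against 4.0 FPKM in DOX(-), H4 5.91 FPKM in DOX(+) against 5.53 FPKM in DOX(-) and H1 4.53 FPKM in DOX(+) against 3.27 FPKM in DOX(-), so H3 stood above H4 in DOX(+) and below it in DOX(-). Each of H2A and H2B exceeded H3 and H4 together in both libraries. The place of H2B rested on 1 gene: without HIST1H2BK, H2B summed to 6.29 FPKM in DOX(+) against 4.38 FPKM in DOX(-), under H2A and under H3 plus H4 in both, under H3 alone in DOX(+) and under H4 alone in DOX(-).

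**Figure D2:**
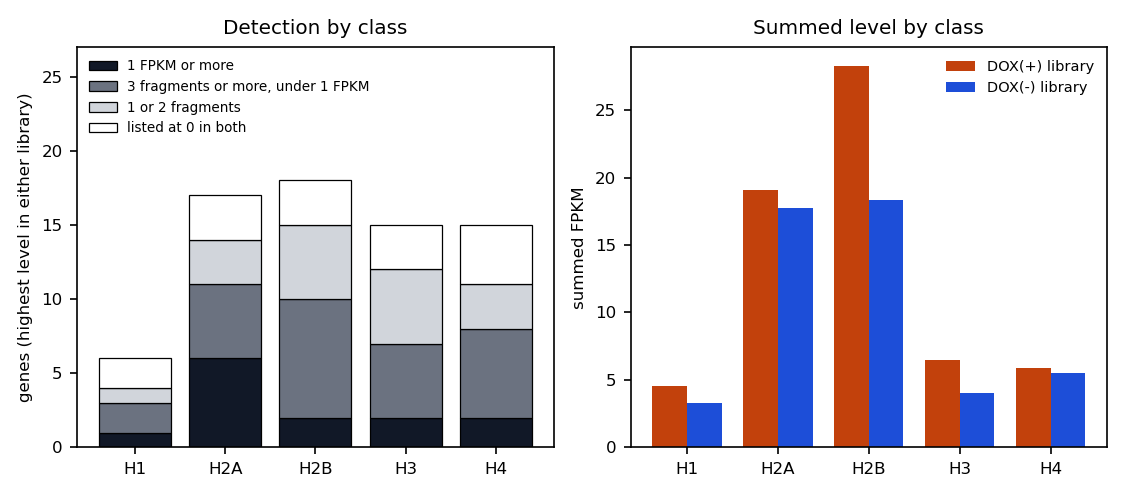
Members of each histone class by detection, and FPKM summed over the class in the library labelled DOX(+) and, to its right, the library labelled DOX(-). H2B sums to 28.3 FPKM in DOX(+) against 18.3 FPKM in DOX(-), and H1, H3 and H4 each stay under 7 FPKM in both.

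Among the 6 H1 members the highest level was that of HIST1H1C, the gene encoding H1.2. It had 3.70 FPKM (44 fragments) in the library labelled DOX(+) against 2.91 FPKM (31 fragments) in the library labelled DOX(-), a ratio of 1.27 with an interval of 0.784 to 2.08. HIST1H1C lies at chr6:26055787-26056428 on the minus strand and shared no run of 100 bases with another gene. HIST1H1E, encoding H1.4, had 0.430 FPKM (6 fragments) in DOX(+) against 0 in DOX(-). Its DOX(+) value was 1.79 times the DOX(-) floor of 3 fragments, and the counting interval of its ratio began at 1.05. HIST1H1D, encoding H1.3, had 0.324 FPKM (4 fragments) in DOX(+) against 0.272 FPKM (3 fragments) in DOX(-). Over the class, 55 fragments in DOX(+) and 35 in DOX(-) gave a ratio of 1.41 (0.904 to 2.21), so the difference was not detectable at this depth. By their longest open reading frames, the 6 H1 genes encode 6 different proteins. The linker histone genes H1FX and H1F0, outside the group, stood above HIST1H1C in level and were lower in DOX(+). H1FX had 64.1 FPKM in DOX(+) against 84.1 FPKM in DOX(-), and H1F0 had 9.35 FPKM in DOX(+) against 13.6 FPKM in DOX(-).

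Of the 17 H2A genes 6 reached 1 FPKM, and they differed in direction. HIST3H2A, at chr1:228456979-228457873 on the minus strand, had 6.27 FPKM (104 fragments) in the library labelled DOX(+) against 6.87 FPKM (102 fragments) in the library labelled DOX(-), a ratio of 0.913 (0.688 to 1.21). Its model contains the stem-loop shown above and shares no run of 100 bases with another gene. HIST2H2AC, at chr1:149886975-149887364 on the plus strand, had 3.46 FPKM (25 fragments) in DOX(+) against 1.55 FPKM (10 fragments) in DOX(-), a ratio of 2.24 (1.04 to 5.22), with 17.2% of its runs of 100 bases shared. HIST2H2AA3 and HIST2H2AA4 are near-identical copies whose reads cannot be assigned with certainty. HIST2H2AA4 had 2.78 FPKM in DOX(+) against 3.10 FPKM in DOX(-), and HIST2H2AA3 had 2.16 FPKM in DOX(+) against 1.32 FPKM in DOX(-). Together they had 51 fragments in DOX(+) and 41 in DOX(-), a ratio of 1.11 (0.724 to 1.72), so the opposite directions of the copies disappear in their sum. HIST1H2AM had 0.962 FPKM in DOX(+) against 1.53 FPKM in DOX(-), and HIST1H2AI had 0.751 FPKM in DOX(+) against 1.08 FPKM in DOX(-), each from 10 fragments or fewer. Both share much of their sequence with other genes, 84.0% and 57.7% of their runs of 100 bases. The other 11 H2A genes stayed at or under 0.837 FPKM in DOX(+) and at or under 0.461 FPKM in DOX(-). The class had 235 fragments in DOX(+) and 201 in DOX(-), a ratio of 1.05 (0.863 to 1.27). The ratio of summed FPKM was 1.08, and it turned to 0.990 over the H2A members that share no run of 100 bases and overlap no other gene.

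HIST1H2BK dominated H2B and the whole group. The gene lies at chr6:27146418-27146798 on the minus strand, encodes an H2B protein, and had 22.0 FPKM (155 fragments) in the library labelled DOX(+) against 13.9 FPKM (88 fragments) in the library labelled DOX(-). The ratio was 1.58 with an interval of 1.21 to 2.07. It ranked 1251 of 19817 protein-coding genes in DOX(+) and 2058 in DOX(-), where the next member, HIST3H2A, ranked 4178 in DOX(+) and 3827 in DOX(-). Its model is the coding sequence of 381 bases, without the stem-loop, and 28.4% of its runs of 100 bases occur in another gene. HIST1H2BO followed with 1.84 FPKM (13 fragments) in DOX(+) against 0.950 FPKM (6 fragments) in DOX(-), a ratio of 1.94 (0.688 to 6.22). HIST1H2BL had 0.774 FPKM (7 fragments) in DOX(+) against 0.494 FPKM (4 fragments) in DOX(-). The class had 240 fragments in DOX(+) and 149 in DOX(-), a ratio of 1.44 (1.17 to 1.78). Without HIST1H2BK there were 85 fragments in DOX(+) and 61 in DOX(-), and the ratio was 1.25 (0.887 to 1.76), an interval that holds 1.

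H3 was low throughout, and 7 of its 15 genes reached 3 fragments in either library. HIST1H3C, at chr6:26045411-26045821 on the plus strand, had 2.50 FPKM (19 fragments) in DOX(+) against 2.20 FPKM (15 fragments) in DOX(-), a ratio of 1.13 (0.546 to 2.40). HIST1H3H had 1.09 FPKM (25 fragments) in DOX(+) against 0.585 FPKM (12 fragments) in DOX(-), a ratio of 1.86 (0.903 to 4.07). HIST1H3B had 0.657 FPKM (5 fragments) in DOX(+) against 0.294 FPKM (2 fragments) in DOX(-). Of the 12 H3 genes above 0, 10 were higher in DOX(+) and 2 lower, where 53.1% of all genes above 0 were higher. The tally includes genes under the floor of 3 fragments, and HIST1H3D, HIST2H3A and HIST2H3C share every run of 100 bases with another gene. HIST1H3F had 6 fragments in DOX(+) and 0 in DOX(-), and the counting interval of its ratio began at 1.05. Its DOX(+) value was 1.79 times the DOX(-) floor of 3 fragments. The class had 77 fragments in DOX(+) and 40 in DOX(-), a ratio of 1.72 (1.16 to 2.59). Without HIST1H3C there were 58 fragments in DOX(+) and 25 in DOX(-), a ratio of 2.08 (1.28 to 3.46). The 15 H3 genes encode 4 different proteins, and 10 of them encode the same one.

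H4 is the most uniform class in protein, with 14 of 15 genes encoding the same sequence. HIST1H4J, at chr6:27824108-27824480 on the plus strand, had 2.32 FPKM (16 fragments) in the library labelled DOX(+) against 3.23 FPKM (20 fragments) in the library labelled DOX(-), a ratio of 0.716 (0.347 to 1.45). HIST1H4K, its near-identical copy, had 1.04 FPKM (6 fragments) in DOX(+) against 0.967 FPKM (5 fragments) in DOX(-), and every run of 100 bases in it is shared. As a pair they had 22 fragments in DOX(+) and 25 in DOX(-), a ratio of 0.788 (0.423 to 1.46). HIST1H4C had 0.993 FPKM (8 fragments) in DOX(+) against 0.277 FPKM (2 fragments) in DOX(-). The class had 59 fragments in DOX(+) and 43 in DOX(-), a ratio of 1.23 (0.815 to 1.86). Without HIST1H4J and HIST1H4K it had 37 fragments in DOX(+) and 18 in DOX(-), a ratio of 1.84 (1.02 to 3.43). This pair was left out after its values were seen. Its own ratio lay below 1, so removing it raises the ratio of the class, and the interval of the rest is a description only.

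Across all 71 members, 666 fragments in the library labelled DOX(+) and 468 in the library labelled DOX(-) gave a ratio of 1.27 (1.13 to 1.44) scaled to library size, and the ratio of summed FPKM was 1.31. Without HIST1H2BK there were 511 fragments in DOX(+) and 380 in DOX(-), and the ratio was 1.20 (1.05 to 1.38). FPKM was higher in DOX(+) for 35 of the 56 members above 0 (62.5%) and lower for 21. The same held for 53.1% of all genes above 0 and for 55.4% of protein-coding genes above 0. Each class had a ratio of summed FPKM above 1, from 1.07 in H4 and 1.08 in H2A to 1.61 in H3. The intervals of the 5 classes overlap, and differences between their ratios were not tested.

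**Figure D3:**
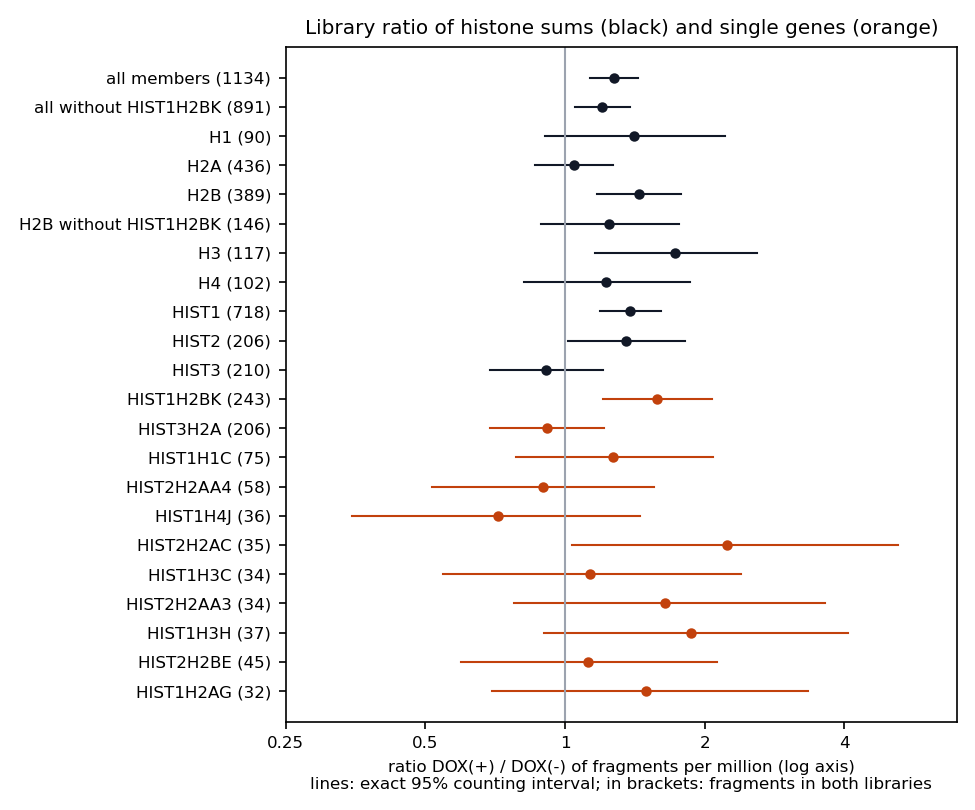
Ratio of the library labelled DOX(+) to the library labelled DOX(-) on a log axis for sums over all members, classes and clusters (black) and for single members with the most fragments (orange), with exact 95% counting intervals as lines and the fragments of both libraries in brackets. The intervals of HIST1H2BK (1.21 to 2.07), HIST2H2AC (1.04 to 5.22), H2B (1.17 to 1.78), H3 (1.16 to 2.59) and all members (1.13 to 1.44) lie above 1.

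Single genes that reached 1 FPKM in either library were compared by the size of the difference in log2(FPKM + 1), with 1.5-fold as the limit. By that rule 2 of the 13 members were higher in DOX(+), HIST2H2AC at a log2 difference of 0.81 and HIST1H2BK at 0.62, against 4.06% of the 11525 genes so compared. None of the 13 was at least 1.5-fold lower, against 3.11% of all genes. No member was 2-fold apart in either direction, against 1.2% of all genes higher and 0.833% lower. The median difference was 0.13 over the 13 members, 8 above 0 and 5 below, and 0.02 over all 11525 genes. The lowest was HIST1H2AM at -0.37. A second rule asked whether the counting interval excluded 1, in genes with 1 transcript and at least 10 fragments over both libraries. It picked HIST1H2BK and HIST2H2AC, 2 of 21 members, as higher in DOX(+), against 14.2% of 3264 genes, and 0 of 21 as lower, against 11.8%. At this number of members neither count stands apart from the share over all genes. The members nearest the limit of 1 FPKM were HIST1H4K, HIST1H2AI and HIST1H3H inside it, at 1.04, 1.08 and 1.09 FPKM in their higher library, and HIST1H4C, HIST1H2BM and HIST1H2AH outside it, at 0.993, 0.850 and 0.837 FPKM.

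By their symbols the members fall into 4 clusters. HIST1, on chromosome 6, has 55 genes. HIST2 and HIST3, on chromosome 1, have 12 and 3 genes, and HIST4, on chromosome 12, has 1. HIST2H3PS2, at chr1:143905556-143905966, lies apart from the other HIST2 members, which begin at chr1:149782689. HIST1 summed to 47.7 FPKM in the library labelled DOX(+) against 34.8 FPKM in the library labelled DOX(-), with a ratio of fragments of 1.38 (1.19 to 1.61). HIST2 summed to 10.2 FPKM in DOX(+) against 7.13 FPKM in DOX(-), with a ratio of 1.35 (1.02 to 1.81). HIST3 summed to 6.32 FPKM in DOX(+) against 6.93 FPKM in DOX(-), nearly all HIST3H2A, with a ratio of 0.912 (0.689 to 1.21). HIST4H4, the member of the fourth cluster, was listed at 0. Within HIST1, the widest gap between neighbouring members was 0.848 Mb, before HIST1H2BJ. The 34 members before the gap summed to 12.99 FPKM in DOX(+) against 9.61 FPKM in DOX(-), and the 21 after it to 34.7 FPKM in DOX(+) against 25.2 FPKM in DOX(-). Without HIST1H2BK the 20 other members after the gap summed to 12.7 FPKM in DOX(+) against 11.2 FPKM in DOX(-). These sums are close to those of the 34 before the gap, from fewer genes. The median of the 20 was 0.589 FPKM in DOX(+) and 0.309 FPKM in DOX(-), and 6 reached 1 FPKM in either library. Before the gap the median was 0.134 FPKM in DOX(+) and 0.0861 FPKM in DOX(-), and 2 reached 1 FPKM.

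**Figure D4:**
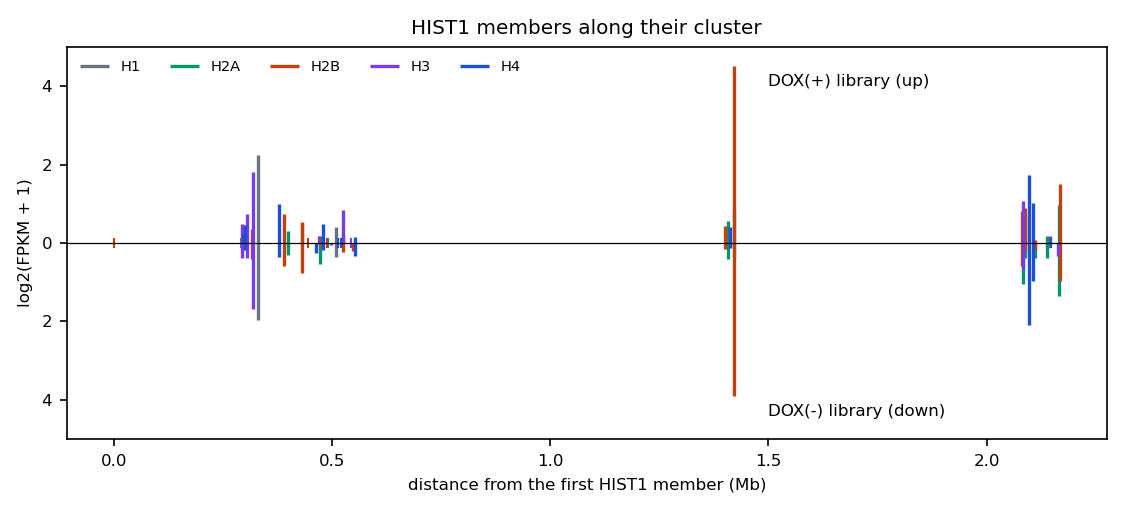
Level as log2(FPKM + 1) of the HIST1 members by distance in Mb from the first of them, drawn upwards for the library labelled DOX(+) and downwards for the library labelled DOX(-), coloured by class. The tallest line, after the gap of 0.848 Mb, is HIST1H2BK, at 22.0 FPKM in DOX(+) against 13.9 FPKM in DOX(-).

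Many H2A and H2B genes start close together and run in opposite directions. There were 11 such H2A and H2B pairs with starts at most 1000 bp apart, at gaps of 218 to 330 bp (median 282 bp). In several pairs the partners stood far apart. HIST1H2BK had 22.0 FPKM in the library labelled DOX(+) against 13.9 FPKM in the library labelled DOX(-), and HIST1H2AH, 330 bp away, had 0.837 FPKM in DOX(+) against 0.312 FPKM in DOX(-). HIST3H2A had 6.27 FPKM in DOX(+) against 6.87 FPKM in DOX(-) and its partner HIST3H2BB 0.0457 FPKM in DOX(+) against 0.0510 FPKM in DOX(-). HIST2H2AC had 3.46 FPKM in DOX(+) against 1.55 FPKM in DOX(-), and HIST2H2BE 0.615 FPKM in DOX(+) against 0.550 FPKM in DOX(-). For HIST2H2BE the division is by a model of 2194 bases that continues 1729 bases beyond the stem-loop. In fragments HIST2H2BE had 25 in DOX(+) and 20 in DOX(-), against 25 and 10 for HIST2H2AC. Other partners were close, such as HIST1H2BL with 0.774 FPKM in DOX(+) against 0.494 FPKM in DOX(-) and HIST1H2AI with 0.751 FPKM in DOX(+) against 1.08 FPKM in DOX(-). The H2A partner had the higher mean FPKM in 6 pairs and the H2B partner in 3, and both were at 0 in 2. This tally depends on model length and rests on few fragments in several pairs. The promoters printed above lie in the gaps of the pairs of HIST1H2BK, HIST3H2A and HIST2H2AC.

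The members were also split by the form of their gene model. The 32 members with the stem-loop in their model had 333 fragments in the library labelled DOX(+) and 273 in the library labelled DOX(-), a ratio of 1.09 (0.928 to 1.29). The 39 without it had 333 in DOX(+) and 195 in DOX(-), a ratio of 1.53 (1.28 to 1.83). Without HIST1H2BK the 38 others had 178 in DOX(+) and 107 in DOX(-), a ratio of 1.49 (1.17 to 1.91). A model that ends at the stop codon counts the coding part of an mRNA, whichever end it has, so these groups are not groups of mRNAs with and without a stem-loop. The 44 members that share no run of 100 bases and overlap no exon of another gene had 319 fragments in DOX(+) and 225 in DOX(-), a ratio of 1.27 (1.07 to 1.51), and the other 27 had 347 in DOX(+) and 243 in DOX(-), a ratio of 1.28 (1.08 to 1.51). The part that the gene models play in the difference was not tested.

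All 22 genes listed for histone transcription and mRNA processing were above 0 in both libraries. Of the 21 at 1 FPKM or more, 2 passed 1.5-fold upwards in DOX(+), against 4.06% of all genes, and 0 downwards, against 3.11%, with a median log2 difference of 0.10. These were LSM1, a subunit of the ring that starts mRNA decay, at 12.0 FPKM in DOX(+) against 6.72 FPKM in DOX(-), and NCBP2, the small subunit of the nuclear cap-binding complex, at 3.71 FPKM in DOX(+) against 1.87 FPKM in DOX(-). SLBP, which binds the stem-loop, had 31.9 FPKM in DOX(+) against 27.7 FPKM in DOX(-). NPAT, the S-phase activator of histone genes, had 1.43 FPKM in DOX(+) against 1.26 FPKM in DOX(-), and LSM11, a U7 particle protein, had 4.44 FPKM in DOX(+) against 3.85 FPKM in DOX(-). CASP8AP2, needed for histone transcription and mRNA processing, had 5.39 FPKM in DOX(+) against 3.73 FPKM in DOX(-).

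Of 19 histone chaperone and assembly genes, 0 were 1.5-fold apart in either direction on the log2(FPKM + 1) scale, where 4.06% of all genes were higher and 3.11% lower, and the median log2 difference was 0.08. ATRX, the partner of DAXX, had 1.95 FPKM in DOX(+) against 1.17 FPKM in DOX(-), a plain ratio of 1.66 that the pseudocount of 1 FPKM brings under the limit. DAXX, the chaperone of H3.3, had 7.63 FPKM in DOX(+) against 10.7 FPKM in DOX(-), HAT1, which acetylates new H4, had 13.8 FPKM in DOX(+) against 10.4 FPKM in DOX(-), and ASF1A, a chaperone of H3 and H4, had 19.0 FPKM in DOX(+) against 15.8 FPKM in DOX(-). Of 18 S-phase genes, 0 were 1.5-fold higher in DOX(+) and 1 was lower, CDT1, the replication licensing factor, at 30.2 FPKM in DOX(+) against 46.9 FPKM in DOX(-). The E-type cyclins were at 4.69 FPKM in DOX(+) against 3.74 FPKM in DOX(-) for CCNE1 and at 5.65 FPKM in DOX(+) against 3.96 FPKM in DOX(-) for CCNE2. The median over the S-phase genes was 0.08. Of 10 replication-independent histone genes that reached 1 FPKM, 1 was 1.5-fold lower in DOX(+), H3F3A, an H3.3 gene, at 6.59 FPKM in DOX(+) against 10.6 FPKM in DOX(-). H1F0, a linker histone of resting cells, had 9.35 FPKM in DOX(+) against 13.6 FPKM in DOX(-), H3F3C had 5.06 FPKM in DOX(+) against 3.31 FPKM in DOX(-), and the median was 0.12.

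RNAs that lack a poly(A) tail were listed because the way RNA was selected bears on histone mRNAs. Of 15 such RNAs, 9 were listed at 0 in the library labelled DOX(+) and 7 in the library labelled DOX(-). RN7SL2, the RNA of the signal recognition particle, had 15.1 FPKM in DOX(+) against 18.9 FPKM in DOX(-), and RN7SK, which holds back the elongation factor P-TEFb, had 8.40 FPKM in DOX(+) against 6.62 FPKM in DOX(-). RMRP, the RNA of an RNA-processing ribonuclease, had 3.27 FPKM (16 fragments) in DOX(+) against 1.14 FPKM (5 fragments) in DOX(-). It was the only one of the 5 at 1 FPKM or more that was 1.5-fold higher, against 4.06% of all genes. None was 1.5-fold lower, against 3.11%. The median log2 difference of these 5 was -0.08, with 2 above 0 and 3 below. RNU7-1, the U7 RNA that guides histone end cutting, had 1 fragment in each library. RN7SL2 and RN7SK are known as some of the most abundant RNAs of a cell. HIST1H2BK stood above both in DOX(+), and between RN7SL2 and RN7SK in DOX(-). Of 105 snoRNA genes (small RNAs that guide RNA modification) at 1 FPKM or more, 66 were higher in DOX(+) and 39 lower. Their median log2 difference was 0.36. Of all 11525 genes at 1 FPKM or more, 6152 were higher and 5373 lower, with a median of 0.02. Mitochondrial genes took 27.7% of the summed FPKM in DOX(+) and 22.5% in DOX(-). The part of these RNAs in the histone difference was not tested.

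**Figure D5:**
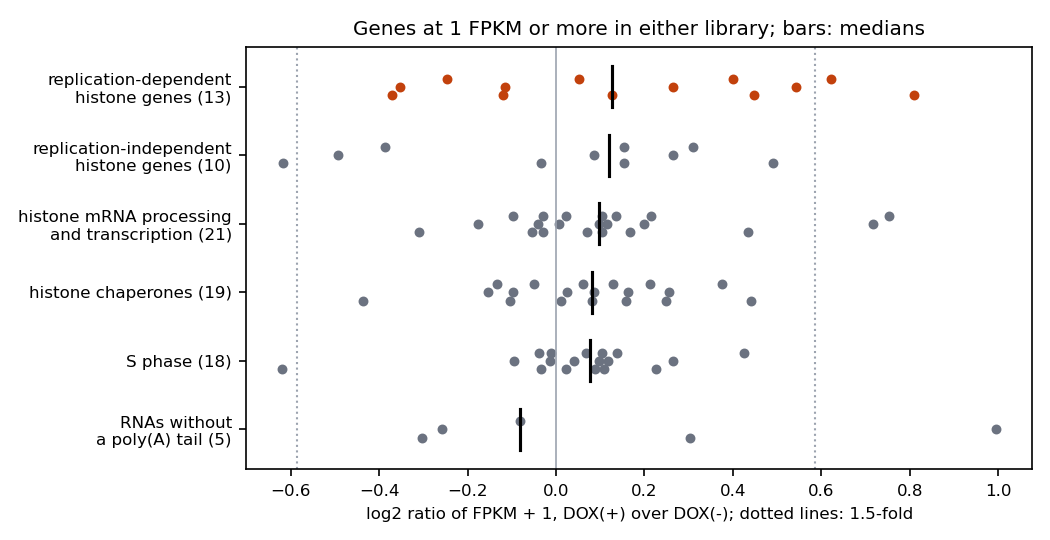
Difference in log2(FPKM + 1), the library labelled DOX(+) minus the library labelled DOX(-), for each gene that reached 1 FPKM in a library, by list, with the median of each list. The members have a median of 0.13, and the lists of histone mRNA processing, chaperone and S-phase genes have medians of 0.10, 0.08 and 0.08. The replication-independent histone genes have a median of 0.12, and the RNAs without a poly(A) tail have a median of -0.08.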

How the data were processed

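Trizol RNA was made into libraries with an NEB Ultra kit, per the labels' protocols. FPKM values were deposited by the authors, per the file headers, as 1 value for a gene in a library. Without giving roles, the submitters' processing notes list edgeR, StringTie 1.3.4b, HISAT2 2.1.0 and CASAVA 1.8, with GRCh38 as the build. Not given in the sources used here are strandedness, poly(A) selection, read length and the annotation used.

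All 71 members had the same locus in GENCODE release 29, which supplied transcript lengths. Depth was recovered from FPKM steps: 99.6% of values up to 100 fragments were whole within 0.02 fragment in DOX(+) (5960 values) and 99.5% in DOX(-) (5576 values). For 58 members with 1 transcript, fragments are exact, and for 13 with several they were estimated on the mean transcript length and rounded. Levels were compared as log2(FPKM + 1), which understates differences of low genes, for genes that reached 1 FPKM in either library. The design assumed no test, since each condition has 1 library. Near-identical copies share 99% or more of their transcript, and 27 members share a run of 100 bases with another gene or overlap one of its exons, so their values are uncertain.

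Named were all members at 1 FPKM or more, the 3 highest of each class, the promyelocyte markers with some markers of other cell types, and from each other gene list the genes fixed by name and the 3 with the greatest difference among those of 2 FPKM or more. ATRX, H1FX, H2AFY2, H2AFJ, HIST1H2AH, HIST1H2BM, HIST1H3D, HIST1H3F, HIST2H3A, HIST2H3C, HIST3H2BB, HIST2H2BE, HIST1H2AG, HIST1H4I and the promoters shown were chosen after their values were seen. The members and lists were chosen with earlier results of these data known. PAPD5 was not matched. Scripts ran in Python 3.11.15 with scipy 1.17.1. Of their steps, the recovery of depth and the counting intervals were tested on simulated data. Alternatives covered the pseudocount, filter, threshold, 3 scalings, fragments in place of FPKM, and subsets of members.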

Additional observations from a re-analysis of the deposited data

How the results depend on the processing

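The ratio of summed FPKM, DOX(+) over DOX(-), ranged over the alternatives from 1.21 to 1.39 for all members, from 1.36 to 2.31 for H1, from 0.990 to 1.18 for H2A, from 1.44 to 1.58 for H2B, from 1.56 to 2.19 for H3 and from 1.05 to 2.19 for H4. It turned below 1 for H2A alone, at 0.990 over members with no shared run of 100 bases and no overlapping exon. H1 moved to 2.31 without HIST1H1C, on 11 fragments in DOX(+) and 4 in DOX(-). H4 moved to 2.19 without near-identical copies and to the same 2.19 without shared runs or overlaps. The count of members at least 1.5-fold higher in DOX(+) was 2, and it was 5 with a pseudocount of 0.1 FPKM, 5 with no filter, 1 with a filter of 5 FPKM, 0 with a 2-fold rule, 3 of 14 members when scaled to nuclear protein-coding genes, 1 without HIST1H2BK and 0 of 5 members without shared runs or overlaps. The count lower was 0, and it was 1 with a pseudocount of 0.1 FPKM. The median log2 difference stayed above 0, from 0.09 to 0.26. None of 52 values of single members under other pseudocounts and scalings reversed. Another pseudocount cannot reverse a direction, and the scalings, at factors of 0.983 to 1.03 on DOX(+), were too small to do so. This outcome is therefore no sign of stability. Leaving out HIST1H2BK, HIST1H4J with HIST1H4K, members with several transcripts, or members with shared runs or overlaps was chosen after seeing the data. Beyond smaller subsets of members, the cause of these moves was not tested. No paired analysis was possible because each condition had 1 library, and for the same reason no replicate could be left out. Most members had under 10 fragments over both libraries, which limits every ratio above.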

Other observations

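The table also held 20 rows with a histone cluster symbol that were not annotated as protein-coding and so fell outside the group, 15 of them listed at 0 in both libraries. The highest was HIST2H2BD, a transcribed H2B pseudogene, at 1.20 FPKM in DOX(+) against 0.857 FPKM in DOX(-), above 16 of the 18 H2B genes in its higher library. HIST1H3PS1, an H3 pseudogene, was listed at 0.259 FPKM in DOX(+) against 0.289 FPKM in DOX(-). Across the 56 members above 0 Pearson's r between the libraries was 0.93 on the log2(FPKM + 1) scale, given as a description, since the points share their libraries and their gene models.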
